A study of Rattus norvegicus with 8 samples.

Results

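The genes described here are the 63 gene IDs whose read level was lower in every stressed rat than in every control rat by a set margin in the means, out of 14174 IDs with a mean level of at least 1 CPM and 32883 IDs in each file. CPM is the read count of a gene divided by all reads counted in its library and multiplied by 1e6. The 63 were chosen by 3 measured values: a mean CPM of at least 1 over all 8 libraries, a highest stress CPM below the lowest control CPM, and a mean stress CPM of at most 0.75 times the mean control CPM. The last 2 come from the stress contrast, so the difference between the groups is given as a description, with no test of the 63. The p values printed further below come from fits of the whole table and are not read as tests of these genes. The IDs are Ensembl gene IDs of the rat, which the files do not pair with names. The RefSeq gene table used for names holds 0 of the 32883 IDs, so the symbol, function, position, type and sequence of the 63 genes were not analysed here, and what they share can be given only in terms of their read levels. The IDs of the 2 genes with the lowest ratio of stress to control are printed, and every other gene is called by its place in that order, from member 1 (lowest ratio) to member 63.

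The libraries came from punches of prefrontal cortex of male Sprague Dawley rats aged 3 to 5 weeks, with 1 rat per library. The 4 control and 4 stress libraries were grouped by their source names, and no transgene or drug is listed for either. Stressed rats met 2 changing stressors on each day, among them restraint, a forced swim, an elevated platform and a wet tilted cage; the labels print this text for the controls too and do not say how the controls were handled. The series title places the comparison in a study of DNA methyltransferase 3A and the lasting effects of stress on synapses.

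The prefrontal cortex weighs goals against threats and feeds back on the hormonal stress response. Its glutamatergic neurons carry receptors for corticosteroid hormones, which act as transcription factors and can raise or lower the RNA of their target genes. Repeated stress is known to change the dendrites and glutamatergic synapses of these neurons. A punch holds neurons, glia and vessel cells together. In such bulk RNA, fewer cells of a type and less RNA per cell cannot be told apart, and the labelled tissue could not be checked against marker genes because the IDs have no names.

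Every stress library was deeper (55037169 to 66854820 counts) than every control library (42195741 to 49622782). The labels give no sequencing batch, so a batch that followed depth and the stress itself cannot be told apart in any value below. Stress replicate 2 stood apart from the other stress libraries in the levels of these genes, and values with and without it are given for the set and for some genes.

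Most of the 63 genes were lower by a modest amount, and a few by 2-fold or more. The ratio of mean stress to mean control CPM ran from 0.342 to 0.749, with a median of 0.715, and the middle of the set (lower to upper quartile) lay between 0.667 and 0.735. It was at most 0.5 in 4 genes, at most 0.6 in 8, at most 0.67 in 16 and at most 0.7 in 25. The other 38 genes lay between 0.7 and the limit of 0.75. Over all 14174 genes of at least 1 CPM the median ratio was 1.02.

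The 63 genes made up 0.444% of the 14174. The rule turned round, for genes higher in every stressed rat with a control mean of at most 0.75 times the stress mean, held for 380 genes, or 2.68%. Without the limit on the ratio, 945 genes (6.67%) were lower in every stressed rat, with a median ratio of 0.880, and 1869 were higher in every stressed rat. Of the 945 lower genes 882 missed the limit on the ratio, and of the 1869 higher genes 380 met it. How many genes fell on each side moved with the scaling. With TMM factors, which set library sizes so that most genes have equal levels, the rule gave 83 genes lower and 260 higher, and with upper-quartile factors 95 lower and 232 higher. The share of lower genes among both was 14.2% on library totals, 24.2% with TMM and 29.1% with upper-quartile factors. Every stress factor lay above every control factor, at 1.008 to 1.026 against 0.972 to 1.002 with TMM. With upper-quartile factors the ranges were 1.007 to 1.038 against 0.961 to 1.002. These scalings could thus only lower the ratios and keep the separation. All 63 genes stayed in the set under each, but only the limit on mean CPM could have removed a gene.

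Read levels in the set leaned to the low end. Mean CPM over the 8 libraries ran from 1.049 to 182, with a median of 4.28 against 23.8 over the 14174 genes and 9.77 over the 380 genes of the turned rule. Under 5 CPM stood 34 of the 63 genes (54.0%) against 18.9% of the 14174, and at least 20 CPM stood 14 (22.2%) against 54.4%. This difference in level was not tested, and a low level itself gives wider counting error. CPM is not divided by gene length, so an order by CPM is one of read share and not of RNA molecules. The smallest count behind any value was 25 reads and the largest 11480, and 6 of the 63 genes had under 50 reads in at least 1 library.

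**Figure D1:**
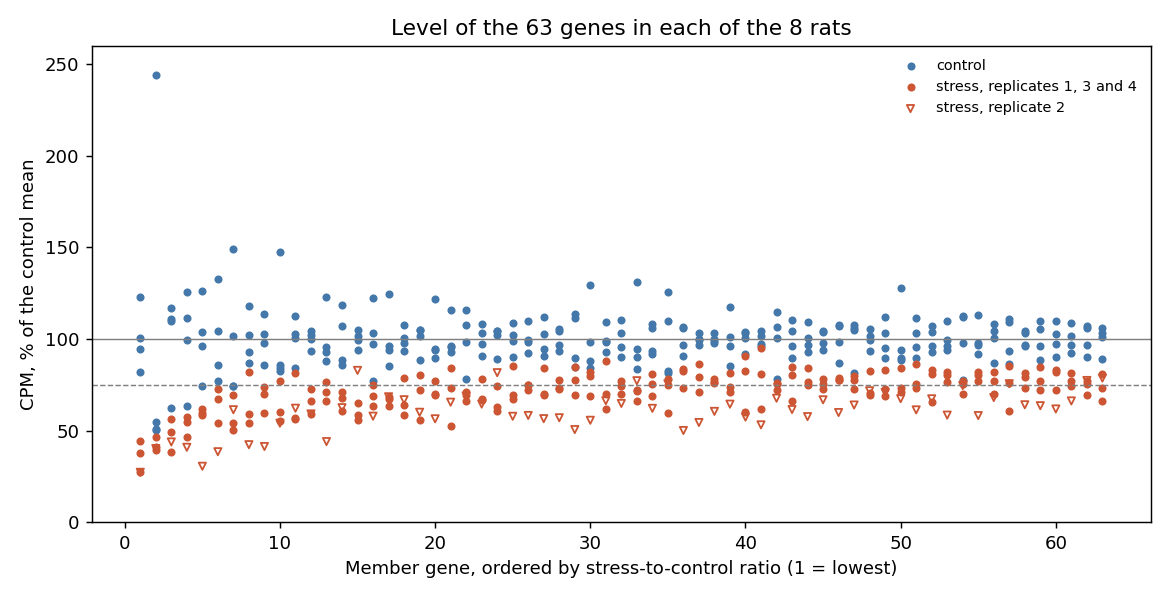
Level of each of the 63 genes in each rat (vertical axis, CPM as a percent of that gene's mean over the 4 control rats), with the genes ordered by ratio of mean stress to mean control CPM (horizontal axis, member 1 lowest). Control rats are blue and stressed rats orange, stress replicate 2 is an open triangle, the solid line marks 100% and the dashed line 75%; the triangle is the lowest stress point in 40 of the 63 genes, and a single control point of member 2 stands at 244%.

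Member 1, ENSRNOG00000051831, had both the lowest ratio and the widest gap between the groups. It measured 15.1, 14.2, 18.5 and 12.3 CPM in control replicates 1 to 4 and 4.10, 4.10, 6.66 and 5.72 CPM in stress replicates 1 to 4, on 244 to 812 reads per library. Its means were 15.0 ± 2.58 CPM in control and 5.14 ± 1.27 CPM in stressed rats (SD, n = 4 each), a ratio of 0.342 or a 2.92-fold lower level. The lowest control rat stood 1.85 times above the highest stress rat. Leaving out any 1 library moved the ratio only between 0.309 and 0.370.

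Member 2, ENSRNOG00000050104, owed its place to 1 control rat. It measured 2.53, 2.50, 2.73 and 12.1 CPM in control and 1.97, 2.00, 2.31 and 2.04 CPM in stressed rats. Control replicate 4, with 512 reads, was far above the other controls, which lay close above the stressed rats. The means of 4.97 ± 4.78 and 2.08 ± 0.156 CPM (SD, n = 4 each) gave a ratio of 0.418. Without control replicate 4 the ratio was 0.804, and the ratio of medians was 0.767, both outside the limit.

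The next 3 genes by ratio were low in level. Member 3 measured 6.18, 6.49, 3.46 and 6.11 CPM in control and 2.75, 2.44, 3.13 and 2.14 CPM in stressed rats, a ratio of 0.470. Control replicate 3 was its low control and came close to stress replicate 3, while the other controls were well above every stressed rat. Member 4 measured 3.11, 2.78, 1.77 and 3.51 CPM in control and 1.60, 1.14, 1.299 and 1.53 CPM in stressed rats, a ratio of 0.498, again with control replicate 3 nearest to the stressed rats. Member 5, at 1.43, 1.73, 1.32 and 1.02 CPM in control and 0.853, 0.420, 0.802 and 0.818 CPM in stressed rats, had the lowest mean level of the set and a ratio of 0.526. Its low value in stress replicate 2 rested on 25 reads, and without that library its ratio was 0.599.

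Control rats also differed widely in member 7, at 9.81, 14.4, 7.15 and 7.18 CPM, against 6.70, 5.92, 4.86 and 5.20 CPM in stressed rats. Its 2 lowest controls stood just above the highest stressed rat. The ratio of 0.589 became 0.705 without control replicate 2, which was the high one.

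Member 12 combined a moderate ratio with tight groups. It measured 15.2, 14.9, 13.9 and 15.5 CPM in control and 9.80, 8.79, 8.79 and 10.8 CPM in stressed rats, on 523 to 738 reads. The means were 14.9 ± 0.686 and 9.55 ± 0.975 CPM (SD, n = 4 each), a ratio of 0.643. The lowest control stood 1.28 times above the highest stressed rat, the widest gap after that of member 1. Leaving out any 1 library kept the ratio between 0.614 and 0.660.

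Of the 63 genes, 6 had at least 50 CPM, with ratios of 0.656 to 0.744. Member 55, the highest in read share, measured 192, 205, 237 and 203 CPM in control and 172, 122, 168 and 161 CPM in stressed rats, with means of 209 ± 19.3 and 156 ± 22.9 CPM (SD, n = 4 each) and a ratio of 0.744. Stress replicate 2 was far below the other stressed rats, and without it the ratio was 0.798, outside the limit. Member 38 measured 146, 148, 149 and 154 CPM in control and 114, 90.2, 113 and 116 CPM in stressed rats. Its controls were tightly grouped, stress replicate 2 was again the lowest, and the ratio of 0.727 became 0.768 without that library. Member 34 measured 115, 98.7, 97.5 and 112 CPM in control and 72.9, 65.8, 79.9 and 85.9 CPM in stressed rats, a ratio of 0.719. Without stress replicate 2 its ratio was 0.752, outside the limit.

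Member 28 measured 109, 100.4, 110 and 97.5 CPM in control and 76.0, 59.3, 75.9 and 80.9 CPM in stressed rats, a ratio of 0.702. Stress replicate 2 was once more the low value, and without it the ratio was 0.746. Member 15 went the other way within the stress group. It measured 78.4, 80.1, 82.8 and 74.4 CPM in control and 46.3, 65.4, 51.5 and 44.1 CPM in stressed rats, a ratio of 0.656 in which stress replicate 2 was the highest stressed rat and lay nearest to the controls. Without that library the ratio was 0.599.

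**Figure D2:**
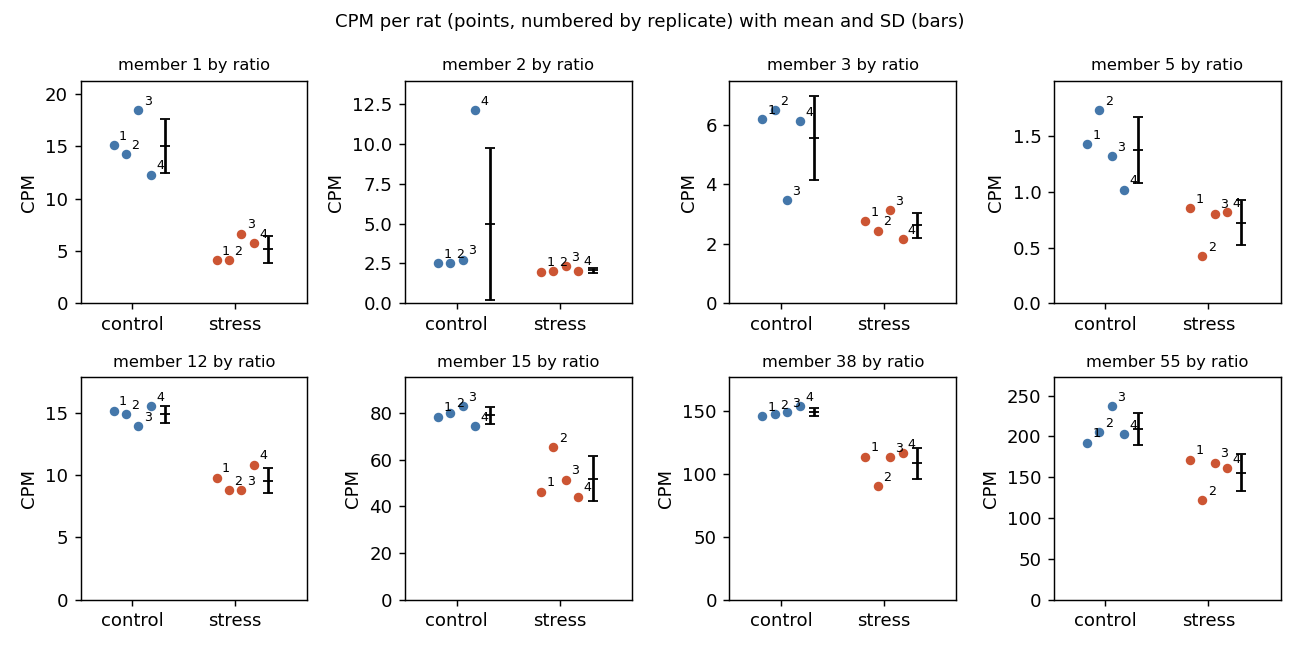
CPM of 8 of the 63 genes in each rat (vertical axis from 0, its own scale for each gene; blue control, orange stress), with points numbered by replicate and bars giving the mean and SD of 4 rats. Member 1 (12.3 to 18.5 against 4.10 to 6.66 CPM) and member 12 (13.9 to 15.5 against 8.79 to 10.8 CPM) have a clear space between the groups, whereas the mean of member 2 is raised by control replicate 4 at 12.1 CPM.

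Full separation was often narrow. The lowest control value divided by the highest stress value had a median of 1.097 over the 63 genes. The step between them was at most 5% in 14 genes and at most 10% in 32, at least 20% in 7, and above 30% in member 1 only. The narrowest gaps were those of members 29 and 54, at 1.003 each. Member 29 measured 20.9, 27.5, 27.97 and 22.1 CPM in control and 17.1, 12.4, 20.8 and 19.1 CPM in stressed rats, so control replicate 1 and stress replicate 3 nearly touched.

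**Figure D3:**
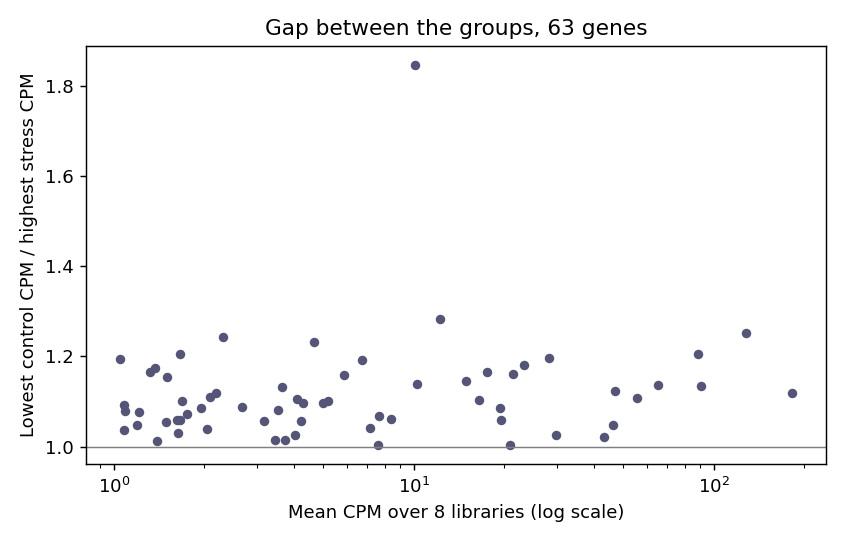
Lowest control CPM divided by highest stress CPM (vertical axis, where 1 means that the groups touch) against mean CPM over the 8 libraries (horizontal axis, log scale), 1 point for each of the 63 genes. The points lie between 1.003 and 1.28 at all levels except member 1, at 1.85.

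The limit of 0.75 cut through a dense range of ratios. The 3 genes just inside it had ratios of 0.7486, 0.7491 and 0.7492, and the 3 separated genes just outside it 0.7501, 0.7517 and 0.7531. The first gene outside measured 1.64, 2.08, 2.23 and 1.78 CPM in control and 1.54, 1.48, 1.28 and 1.49 CPM in stressed rats. The second measured 262, 275, 243 and 255 CPM in control and 204, 159, 220 and 194 CPM in stressed rats, a higher level than any of the 63 genes had. Nothing in these values sets the genes inside the limit apart from those outside it.

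Stressed rats were not equally low. The median of the 63 genes stood at 73.8%, 61.5%, 72.5% and 72.8% of the control mean in stress replicates 1 to 4, and at 101%, 101%, 96.1% and 100% in control replicates 1 to 4. Over all 14174 genes the same medians were 102% in each stress library and 98.9% to 101% in the controls. Stress replicate 2 was therefore the low rat of the set, and the other 3 were alike. It had under 75% of the control mean in 56 of the 63 genes, against 35, 38 and 37 in stress replicates 1, 3 and 4. Summed over the set, control rats had 1311 ± 13.9 CPM and stressed rats 932 ± 82.7 CPM (SD, n = 4 each), with 972, 808, 971 and 976 CPM in stress replicates 1 to 4. The sum weighs each gene by its CPM, so it mostly reflects the few genes of highest level. Member 55 alone had a control mean of 209 CPM.

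Stress replicate 2 was the lowest of its group in 40 of the 63 genes (63.5%) and the highest in 4. Over the 14174 genes it was the lowest in 37.6% and the highest in 37.8%. Among the 380 genes higher under stress it was the highest in 324 (85.3%), and their median stood at 174% of the control mean there, against 127% to 144% in the other stressed rats. This library was thus the furthest from the controls in both sets. Its part in the choice of the genes was not tested beyond leaving it out, which gave 45 genes lower under stress, 39 of them among the 63, and 212 higher. The number of higher genes ran up to 845 when another library (control replicate 4) was left out, with 775 without stress replicate 3 and 351 to 567 without any 1 of the other 5. With 1 library fewer, full separation is easier to meet, so part of any rise is built in. In the controls the lowest value most often fell to control replicate 3, in 27 of the 63 genes (42.9%) against 35.3% over all genes.

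Rats that were low in 1 of these genes within their own group were only weakly inclined to be low in the others. Deviations of log2(CPM + 0.5) from the group means correlated with a median r of 0.213 over the 1953 pairs of the 63 genes, across 8 libraries. Above 0.5 stood 25.9% of the pairs, and below -0.5 6.91%. Over all pairs of the 14174 genes the median was 0.011, with 21.7% above 0.5 and 20.4% below -0.5. Among the 380 genes higher under stress the median was 0.601, with 59.6% above 0.5 and 2.49% below -0.5. Without stress replicate 2 the median fell to 0.0167 for the 63 genes and to 0.327 for the 380, against 0.0189 over all genes. Above 0.5 then stood 16.8% of the pairs of the 63 genes and 20.6% of all pairs. In these values the shared movement of the 63 genes within groups lay mainly in 1 library. A low value in stress replicate 2 also helps a gene meet the limit on the ratio. Part of this movement is therefore built in by the choice of the genes, and how much was not tested. All pairs share the same libraries, so these values are descriptions only.

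Many of the ratios also crossed the limit when a single library was left out. Genes chosen by the limit can cross it only outward, and 38 of the 63 lay between 0.7 and 0.75. Part of these crossings is therefore built in. In 33 of the 63 genes, leaving out 1 library or another took the ratio above 0.75, and in 3 (members 2, 33 and 50) above 0.8. Stress replicate 2 did so in 24 genes, control replicate 1 in 14, control replicate 2 in 10, and each of the other 5 libraries in 2 to 8. With medians in place of means, a choice made after seeing the data, 16 of the 63 genes exceeded the limit.

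Calls over the whole table use the contrast that chose the genes. Small p values in the 63 were thus built in by the choice, and nothing is read from them or from the members' share of the calls. Among 16760 genes tested with edgeR's quasi-likelihood test, 2 (0.0119%) were lower under stress at an adjusted p under 0.05, and both were among the 63: members 1 and 12, each with an adjusted p of 0.0426 in edgeR and log2 fold changes of -1.59 and -0.68 on TMM-scaled sizes. The adjusted p in edgeR ran up to 0.118 over the 63, with a median of 0.0762, and 61 of them lay under 0.1, as did 2349 of the 16760 genes tested. The highest, 0.118 in edgeR, belonged to member 2. DESeq2 called 948 of 14430 genes lower (6.57%), 57 of the 63 among them.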

How the data were processed

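The deposited values are unnormalized read counts for each Ensembl gene ID, in 1 file for each rat, from RNA depleted of ribosomal RNA. The submitters' processing notes name featureCounts 1.5.0-p3, HISAT2 and build rn6, along with bcl2fastq 1.8.4 and edgeR 3.20.9. For the annotation, the strand setting and reads with several matches, the notes name nothing, so overlapping or near-identical genes cannot be set apart. CPM was computed on library totals. All 63 genes passed the filter on low counts (filterByExpr of edgeR 4.0.16, minimum count 10, minimum total 15). The edgeR quasi-likelihood test with TMM factors and group as the only term was fitted over all 8 libraries in R 4.3.3 and adjusted by the Benjamini-Hochberg method. Its fit (glmQLFit) was run with the legacy option on, and this option was not varied. DESeq2 1.42.0 was the other tool. Both the rule and the edgeR fit were tested on simulated data.

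The members were chosen with earlier results of these data known, as were the marker and pathway lists, which could not be matched to IDs and were not used. The rule for named genes (lowest ratios, highest levels, list members) was held to 2 printed IDs, and the other genes are given by rank. Members 7, 12, 15, 28, 29, 33, 34, 38, 50, 54 and 55 were picked for description after their values were seen. Each library is a different rat. The labels name no molecular identifiers, and depth limits counting error alone.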

Additional observations from a re-analysis of the deposited data

Results flagged for a closer look

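In 6 of 28 groups of 4 libraries examined, 1 value lay outside the others by a gap that exceeded Dixon's 95% limit for its share of the range. Chance does so in about 1 in 20 groups that were not picked by their values; these genes were, and the last 2 values below restate the same library, so that rate cannot be set against the 6. Member 2 stood at 12.13 CPM in control replicate 4, and member 3 at 3.46 CPM in control replicate 3. Member 5 stood at 0.4201 CPM and member 38 at 90.22 CPM in stress replicate 2. The same library was set apart in the summed level of the 63 genes, at 807.6 CPM, and in their median level, at 61.5% of the control mean. Over all 63 genes, 8 control groups and 5 stress groups of the 126 examined held such a value.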

How the results depend on the processing

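The rule gave 63 genes on library totals, 83 with TMM factors, 88 with DESeq2 size factors, 69 without the 10 most abundant IDs, 74 from a mean CPM of 0.5 and 58 after thinning all libraries to the smallest total (53 of the 63 among them). It gave 95 with upper-quartile factors, 29 from a mean CPM of 5, 118 with a ratio of at most 0.8 and 16 with at most 0.67, the last 3 by construction. TMM, DESeq2 and upper-quartile factors were each higher in every stress library than in every control library. They lower every ratio of stress to control, so the direction of these 3 rises was set by the factors. Why the factors differ between the groups was not tested. With medians, added after the data were seen, it gave 49. Leaving out 1 library gave 45 (without stress replicate 2) to 111 genes (without control replicate 3), with 39 to 61 of the 63 among them. Full separation is easier to meet with 1 library fewer, so part of any rise in these counts is built in. The edgeR quasi-likelihood test called 2 genes, and also 2 with DESeq2 size factors. It called 99 without the filter on low counts (61 of them higher), and DESeq2 called 2129. Leaving out 1 library gave 0 to 66 calls: 0 on omitting control replicate 1, 2 or 4 or stress replicate 1 or 4, then 36 (control replicate 3 omitted), 66 (stress replicate 2) and 26 (stress replicate 3), where 4939 genes had an unadjusted p under 0.05 with all 8 libraries. The replicate block gave 697 calls, 481 of them higher and 31.0% lower. The labels state no link between same-numbered rats, and whether they share more than the number is not known. Deviations from the group means gave r of -0.048 to 0.192 for the 4 numbers, and the best match of a library bore its own number in 3 of 8. Ratios were recomputed here for 12 of the described genes (members 1 to 5, 7, 12, 15, 28, 29, 38 and 55). Members 33, 34, 50 and 54 were not among them. Over the 132 recomputed ratios none reversed. None could, because the rule put every stressed rat below every control and the scalings only lowered the ratios. Of the 132 ratios, 5 moved by more than the SD of the stress group, 4 of them in member 2 (0.359 to 0.804) and 1 in member 7 (0.705).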
